A study of Mus musculus with 6 samples.

Results

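The SREBP pathway and the fatty acid and sterol synthesis genes it controls were examined in the mouse prostate after treatment with OSU-CG5. The 44 genes were taken by name, and 42 of them had at least 1 probe set annotated to that gene alone, out of 18193 such genes on the array. Acat2 and Nr1h2 were not analysed here. The 42 genes were split by role into 7 regulators, 12 genes of fatty acid synthesis, 17 of sterol synthesis, 3 of sterol transport and 3 of the LXR and cholesterol efflux axis. They had 98 probe sets, and each gene is given by its brightest one, the probe set with the highest mean over all arrays, unless another is named.

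All mice were intact TRAMP males of the genotype (C57BL/6 TRAMP x FvB) F1. In this model a probasin promoter drives the SV40 T antigens in prostate epithelium, and vehicle and treated mice carry the transgene alike. One group of 3 mice was given a daily oral dose of OSU-CG5, 100 mg/kg, and the other 3 received vehicle. The source labels name OSU-CG5 for all 3 treated mice, while the free-text descriptions of 2 of them name OSU-CG6 and OSU-CG7. Dosing began at 6 weeks of age and lasted 4 weeks, to the age of 10 weeks. OSU-CG5 is known here by its code name and has been described as an energy restriction-mimetic agent. Tissue was collected 2 to 4 h after the last dose, and 1 Affymetrix array was run per mouse on RNA of the dorsal and lateral lobes together. Mice without the transgene and other doses were not analysed here.

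SREBPs are membrane-bound transcription factors that switch on lipid synthesis when sterols run low. SCAP escorts them from the endoplasmic reticulum to the Golgi, where the site-1 and site-2 proteases release the active factor, and INSIG proteins hold the complex back when sterols are plentiful. SREBP-1c mainly drives fatty acid synthesis and SREBP-2 mainly drives cholesterol synthesis, while the LXR receptors sense oxysterols and raise cholesterol efflux. In prostate epithelium the pathway is known to respond to androgens, and lipid synthesis is a long-studied trait of prostate cancer.

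Values are log2 expression, and the array medians lay between 5.30 and 5.38. Vehicle replicate 2 stood apart, with correlations of 0.966 to 0.981 with the other arrays against 0.987 to 0.995 for every other pair. The 6 seminal vesicle transcripts measured of 7 listed averaged 7.91 there, while the other arrays had averages of 3.56 to 5.08. Markers of luminal prostate epithelium, 8 measured of 11 listed, averaged 11.8 to 12.2 on all arrays, with the secretory protein gene Pbsn at 13.3 to 13.9. The signal difference between 3' and 5' Gapdh control probe sets averaged 2.39 ± 0.32 in vehicle mice and 2.89 ± 0.16 in treated mice (SD, n = 3 each), and the same measure for beta-actin averaged 2.99 ± 0.13 and 3.03 ± 0.07. The part of RNA quality in the results was not tested.

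The counts for the pathway were near those for the whole array. None of the 42 genes passed limma's test at an adjusted p under 0.05, and neither did any of the 45037 probe sets (0%). Over all probe sets the adjusted calls numbered 400 with vehicle replicate 2 left out, 885 with vehicle replicate 3 left out and 822 when arrays were weighted by quality. The brightest probe sets of the 42 genes had 0 in each of these fits, while the dimmer probe set of Scap passed in each. The smallest adjusted p among the 42 was 0.232, for Tm7sf2. At an unadjusted p under 0.05, 1 member read higher with OSU-CG5 and 4 read lower, which is 2.38% and 9.52% of them. Over all genes those shares were 5.4% higher and 8.43% lower. Groups without overlap were seen for 3 members that read higher and 5 that read lower, or 7.14% and 11.9%, against 8.1% and 14.2% of all genes. The 3 became 1 with repeated quantile normalization, where 6.05% of all genes were so, and the 5 became 2 with arrays centred on their median, where 12.7% were so, or with the mean of a gene's probe sets, where 15.4% were so. With 1 array left out, 3 to 5 members read higher and 5 to 10 read lower without overlap. Over those refits 9.84% to 14.2% of all genes were higher so and 18% to 26.9% were lower so. With all arrays and none of these changes, the members' shares were near or below the background in both directions.

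The differences were small. All 42 lay within 1.5-fold in either direction, from -0.47 for Acss2 to 0.33 for Abca1 on the log2 scale, where 2.41% of all genes lay beyond 1.5-fold. The median log2 difference was -0.10 over the members and -0.09 over all genes, and 35.7% of members and 34.3% of all genes were above 0. By branch the median was -0.14 for fatty acid synthesis, -0.04 for sterol synthesis and 0.04 for the regulators. Fatty acid and sterol synthesis changed places with the mean of each gene's probe sets, which gave -0.03 for fatty acid and -0.13 for sterol synthesis. The 95% confidence interval of the difference stayed inside 1.5-fold in both directions for 25 of 42 members. These were 4 of 7 regulators, 7 of 12 fatty acid genes, 11 of 17 sterol genes, all 3 transport genes and 0 of 3 LXR and efflux genes. For the other 17 genes the interval reached past 1.5-fold, so the 3 arrays per group could not show whether the difference was smaller.

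**Figure D1:**
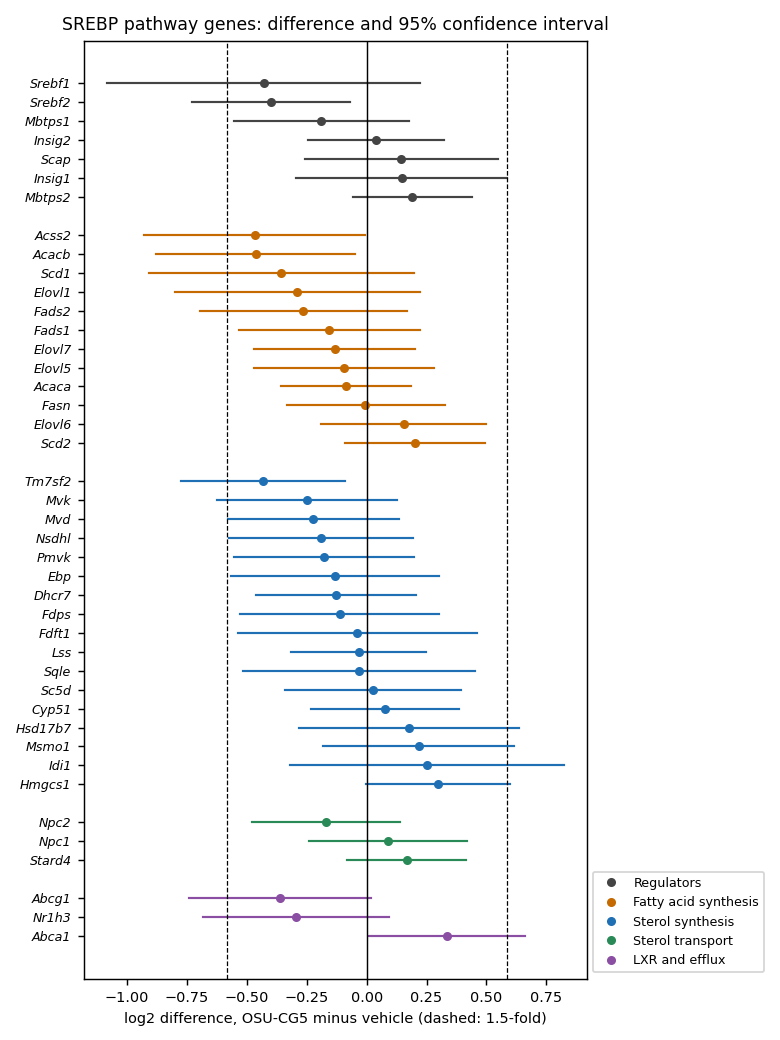
The log2 difference (OSU-CG5 minus vehicle) of the 42 members is plotted by branch, with points for the estimates and lines for their 95% confidence intervals; dashed lines mark 1.5-fold. Every point lies between the dashed lines, and 25 intervals lie wholly between them.

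The counts at an unadjusted p under 0.05 moved with single arrays. The 4 lower calls were Srebf2, Acacb, Acss2 and Tm7sf2, and there were 9 such calls with vehicle replicate 3 left out. Leaving out vehicle replicate 2 gave 1 lower call, or 2.38% against 6.58% of all genes. Leaving out OSU-CG5 replicate 2 gave 2, or 4.76% against 5.33%, and leaving out OSU-CG5 replicate 3 gave 0 against 4.16%. Without vehicle replicate 3 the lower share was 21.4% of members and 11.7% of all genes, and Scd1, Elovl1, Mvk, Nr1h3 and Abcg1 joined those same 4 genes. The single higher call, Abca1, was lost in 4 of the 6 refits. No member read higher at that p without OSU-CG5 replicate 1 or without vehicle replicate 3, while Hmgcs1 was the higher call without OSU-CG5 replicate 3 and Scd2 without vehicle replicate 2. No refit without an array, and no other setting tried, gave a member whose brightest probe set passed the adjusted threshold in limma. The smallest adjusted p over these refits was 0.115.

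Among the regulators, the gene of SREBP-2 read lower and that of SREBP-1 was decided by 1 mouse. Srebf2, the sterol branch's factor, read 7.47, 7.81 and 7.41 in vehicle and 7.26, 7.21 and 7.02 with OSU-CG5. Every treated value lay below every vehicle value, with the highest vehicle value on replicate 2. The log2 difference was -0.40 (SE 0.14, 95% interval -0.73 to -0.07; limma adjusted p = 0.243), or 1.32-fold lower. Its dimmer probe set differed by -0.24 (SE 0.15), and the groups overlapped there. Without vehicle replicate 2 the difference of the brighter probe set was -0.28.

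Srebf1, which encodes both SREBP-1 isoforms, read 9.90, 9.99 and 11.09 in vehicle and 9.83, 9.92 and 9.96 with OSU-CG5. Vehicle replicate 3 stood alone above the other 5 arrays, which lay close together. The group difference of -0.43 (SE 0.29; limma adjusted p = 0.473) became -0.05 without that array. The array has 1 probe set for this gene, so the isoforms SREBP-1a and SREBP-1c were not told apart.

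Scap, the escort protein, gave different answers on its probe sets. The brighter one read 9.26, 9.73 and 9.57 in vehicle and 9.52, 9.51 and 9.97 with OSU-CG5, a difference of 0.14 (SE 0.18; limma adjusted p = 0.697), with overlapping groups. The dimmer one read 4.96, 5.10 and 5.27 in vehicle and 6.38, 6.12 and 6.13 with OSU-CG5. All 3 treated values there lay well above the highest vehicle value, and the difference was 1.10 (SE 0.14; limma adjusted p = 0.112), or 2.15-fold. The dimmer probe set passed the adjusted threshold without vehicle replicate 2 (limma adjusted p = 0.0243), without vehicle replicate 3 (0.0329) and with array quality weights (0.0195). In those same refits 0.888%, 1.97% and 1.83% of all probe sets passed. Its adjusted p ran from 0.0825 to 0.457 under the other alternatives. The part of the Scap transcript that each probe set reads was not tested.

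The sterol sensors and the proteases had estimates between -0.19 and 0.19. Insig1, itself an SREBP target, differed by 0.15 (SE 0.19) and read 7.50 on vehicle replicate 3 against 7.84 to 8.17 on the other 5 arrays. Insig2 differed by 0.04 (SE 0.12, 95% interval -0.24 to 0.32). Its middle probe set, nearly as bright, differed by 0.19 (SE 0.11) with groups that did not overlap, and its dimmest by 0.02. Mbtps1, the site-1 protease, differed by -0.19 (SE 0.16), and its 2 other probe sets by -0.11 and -0.16. Mbtps2, the site-2 protease, read 8.14, 8.27 and 8.23 in vehicle and 8.46, 8.37 and 8.39 with OSU-CG5. The groups did not overlap for Mbtps2, and its difference was 0.19 (SE 0.11; limma adjusted p = 0.409).

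**Figure D2:**
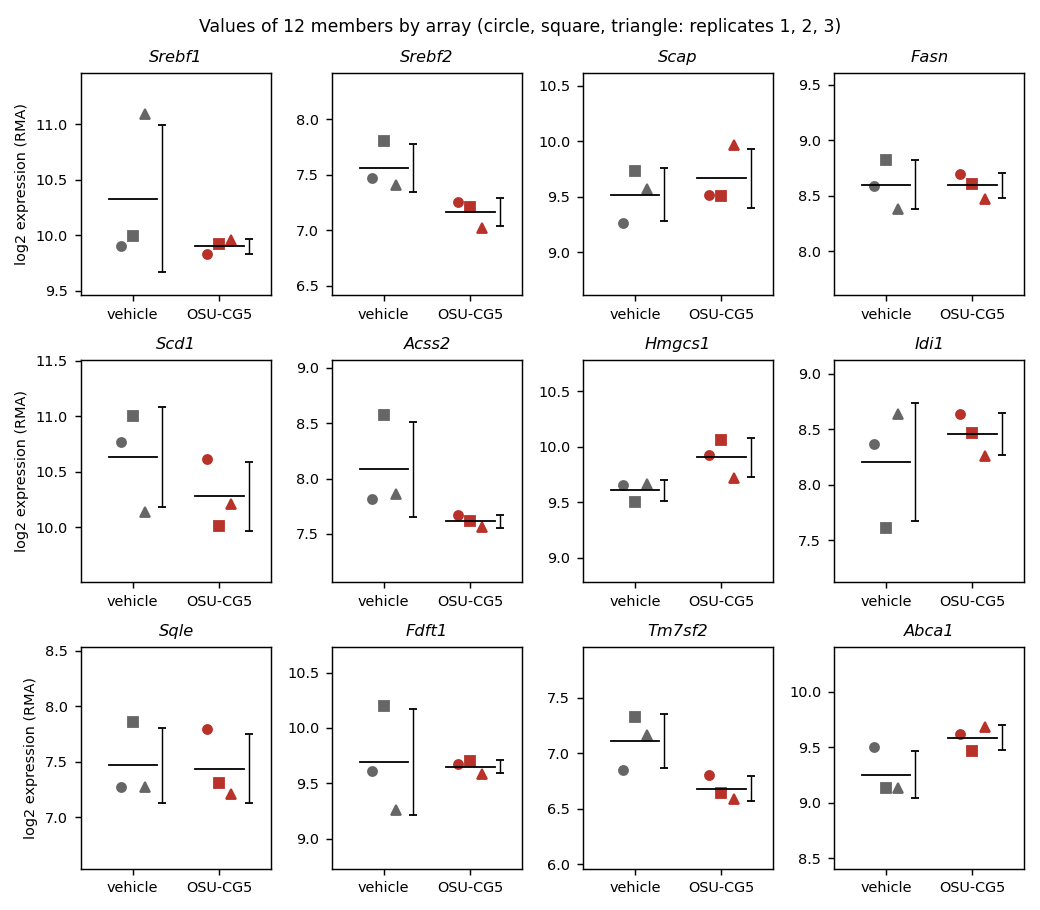
Log2 expression of 12 members is plotted by array, with circles, squares and triangles for replicates 1, 2 and 3 of each group, a line at the mean and a bar of 1 SD beside it; each panel spans the same range of 2 log2 units. Vehicle replicate 3 is alone at the top for Srebf1, and vehicle replicate 2 is the extreme array for Acss2, Idi1 and Fdft1.

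In the fatty acid branch most estimates were below 0, while that of its central enzyme was near 0. Fasn, the fatty acid synthase, read 8.58, 8.82 and 8.38 in vehicle and 8.70, 8.61 and 8.47 with OSU-CG5. The treated values fell inside the vehicle range, and the difference was -0.005 (SE 0.14, 95% interval -0.33 to 0.33; limma adjusted p = 0.991). Acaca, which makes the malonyl-CoA that the synthase uses, differed by -0.09 (SE 0.12, 95% interval -0.36 to 0.18). In this branch 10 of 12 genes were below 0 and 2 were above, where 34.3% of all genes were above 0.

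Acacb and Acss2, both lower, were the members of this branch whose groups did not overlap. They are 16.7% of the branch, near the 14.2% of all genes that were lower without overlap. Acacb, the mitochondrial acetyl-CoA carboxylase that restrains fatty acid oxidation, read 5.42, 5.64 and 5.10 in vehicle and 5.08, 5.05 and 4.63 with OSU-CG5. The groups nearly touched, at vehicle replicate 3 and OSU-CG5 replicate 1. The difference was -0.46 (SE 0.18; limma adjusted p = 0.267), and the dimmer probe set differed by -0.08 (SE 0.13). Acss2, which makes acetyl-CoA from acetate, read 7.81, 8.58 and 7.86 in vehicle and 7.67, 7.62 and 7.56 with OSU-CG5. Vehicle replicate 2 was the high array for Acss2, whose difference of -0.47 (SE 0.20; limma adjusted p = 0.299) was -0.22 without it. Its dimmer probe sets differed by -0.08 and 0.40.

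The desaturases and elongases did not move as a block. Scd1, a stearoyl-CoA desaturase, read 10.77, 11.00 and 10.13 in vehicle and 10.62, 10.01 and 10.21 with OSU-CG5. The groups overlapped, with vehicle replicates 1 and 2 above every treated value and vehicle replicate 3 between treated values, and the difference was -0.36 (SE 0.24, 95% interval -0.91 to 0.20; limma adjusted p = 0.481). Without vehicle replicate 2 it was -0.17 and without vehicle replicate 3 it was -0.61. Scd2, its paralog, read 12.67, 12.83 and 12.49 in vehicle and 12.80, 12.91 and 12.89 with OSU-CG5, a difference of 0.20 (SE 0.13; limma adjusted p = 0.450). The other probe sets of Scd2 differed by 0.31 and -0.33. The difference was -0.29 for Elovl1, -0.10 for Elovl5, 0.15 for Elovl6 and -0.13 for Elovl7, enzymes that lengthen fatty acids. All 4 probe sets of Elovl1 lay below 0, between -0.34 and -0.20, whereas 5 of the 6 probe sets of Elovl7 lay above 0. The polyunsaturated desaturases Fads1 and Fads2 differed by -0.16 (SE 0.17) and -0.26 (SE 0.19).

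Fat cells lie around the prostate and express many of these enzymes. The 10 adipocyte markers measured of 12 listed averaged 4.98 to 5.03 in vehicle and 4.50 to 5.25 with OSU-CG5. Of the 10, 9 had lower group means with OSU-CG5, where 11945 of all 18193 genes were below 0. The 1 with a higher mean was the adipocyte hormone gene Adipoq, which read 5.17 on OSU-CG5 replicate 1 and 2.98 to 3.63 on the other arrays. On that replicate Car3 was also highest of the 6 arrays, at 9.13, while Lipe was lowest, at 4.16. The lipid droplet gene Cidec read 2.69 to 3.04 on all 6. Fatty acid genes averaged 8.39 on OSU-CG5 replicate 1 and 8.26 and 8.18 on the other treated arrays. The part of fat cells in these values was not tested. In whole tissue, fewer cells of a type and less RNA per cell cannot be told apart.

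In the sterol branch, genes of the same pathway read in different directions, and an early enzyme read higher. Hmgcs1, the cytosolic HMG-CoA synthase, read 9.66, 9.50 and 9.66 in vehicle and 9.93, 10.07 and 9.72 with OSU-CG5. All treated values lay above all vehicle values, and the difference was 0.30 (SE 0.13, 95% interval -0.002 to 0.60; limma adjusted p = 0.307). Its 4 dimmer probe sets differed by 0.15 to 0.22, so all 5 had the same sign, and the groups did not overlap on 2 of the 5. Tm7sf2, a sterol reductase, went the other way and read 6.85, 7.33 and 7.17 in vehicle and 6.81, 6.64 and 6.59 with OSU-CG5. Its groups nearly touched, at vehicle replicate 1 and OSU-CG5 replicate 1, and the difference was -0.43 (SE 0.15, 95% interval -0.78 to -0.09; limma adjusted p = 0.232).

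The promoters of Hmgcs1, Srebf2 and Tm7sf2 are shown as examples of genes whose groups did not overlap, 1 higher and 2 lower. Groups also did not overlap for Mbtps2 and Stard4, which read higher, and for Acacb, Acss2 and Npc2, which read lower. Their promoters are not printed. The groups of Hmgcs1 overlapped after repeated quantile normalization or cyclic loess and with the mean of its probe sets, and those of Tm7sf2 overlapped with arrays centred. Each run holds 250 bases before to 50 bases after the transcription start in RefSeq's GRCm38.p6 table, 5′ to 3′ on the gene's strand. Capitals mark matches to TCACNCCAC, the core of a sterol regulatory element, and to CCAAT, the box bound by NF-Y, on either strand.
Hmgcs1, chr13:119690101-119690400, plus strand: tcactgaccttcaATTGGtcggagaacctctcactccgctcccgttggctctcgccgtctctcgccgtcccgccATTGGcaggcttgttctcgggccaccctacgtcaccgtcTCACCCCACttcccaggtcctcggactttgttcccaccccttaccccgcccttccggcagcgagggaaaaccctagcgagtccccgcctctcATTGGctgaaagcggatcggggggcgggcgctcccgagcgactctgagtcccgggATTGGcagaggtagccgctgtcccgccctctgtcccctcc
Srebf2, chr15:82147019-82147318, plus strand: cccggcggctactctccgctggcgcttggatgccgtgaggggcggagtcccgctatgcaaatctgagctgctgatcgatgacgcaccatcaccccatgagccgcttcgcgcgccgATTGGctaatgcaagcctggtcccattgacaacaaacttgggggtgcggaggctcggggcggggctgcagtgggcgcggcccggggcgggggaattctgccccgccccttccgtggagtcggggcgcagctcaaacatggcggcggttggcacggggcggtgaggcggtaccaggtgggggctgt
Tm7sf2, chr19:6067801-6068100, minus strand: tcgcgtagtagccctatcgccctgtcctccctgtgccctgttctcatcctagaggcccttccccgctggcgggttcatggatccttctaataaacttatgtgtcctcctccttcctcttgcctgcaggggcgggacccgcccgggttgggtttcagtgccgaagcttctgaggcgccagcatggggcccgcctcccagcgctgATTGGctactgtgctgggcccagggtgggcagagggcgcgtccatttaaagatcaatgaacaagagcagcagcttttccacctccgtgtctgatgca

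The sterol element core was found at 1 place, 137 bases before the start of Hmgcs1. Of the 43 promoters listed for 33 of the 42 members, only that of Hmgcs1 held it, or 2.33%, against 1.24% of all 32851 promoters in the table. Only this form was searched, within 300 bases per promoter, so a missing match does not show that the element is missing. CCAAT occurred 4 times in the Hmgcs1 promoter and once in each of the other promoters printed. It was present in 58.1% of member promoters, 37.4% of all and 38.2% of the 21263 promoters of protein-coding genes. GGGCGG, an Sp1 box that was searched on both strands and is not in capitals, was present in 69.8% of member promoters, 35.7% of all and 46.2% of those of protein-coding genes. No search motif contains another, and a match is a match of letters only. The members printed as lower and as higher both held CCAAT and GGGCGG.

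Estimates for the enzymes from mevalonate to farnesyl diphosphate were below 0, except for Idi1. The mevalonate kinase Mvk differed by -0.25 (SE 0.16), and its dimmer probe set, singled out after its values were seen, did not overlap between groups and differed by -0.32 (SE 0.14; limma adjusted p = 0.294). The next kinase Pmvk differed by -0.18 (SE 0.16), the decarboxylase Mvd by -0.22 (SE 0.16) and the farnesyl diphosphate synthase Fdps by -0.11 (SE 0.18). Idi1, the isopentenyl diphosphate isomerase, read 8.37, 7.61 and 8.63 in vehicle and 8.64, 8.47 and 8.26 with OSU-CG5. Vehicle replicate 2 was the low array for Idi1, and the difference of 0.25 (SE 0.25; limma adjusted p = 0.631) became -0.05 without it. Its dimmer probe set was also lowest there, at 6.01 against 7.07 to 7.70 on the other arrays.

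Fdft1, the squalene synthase, read 9.61, 10.20 and 9.26 in vehicle and 9.67, 9.70 and 9.58 with OSU-CG5. The treated arrays lay together inside the wide vehicle range, and the difference was -0.04 (SE 0.22, 95% interval -0.54 to 0.46; limma adjusted p = 0.942). Fdft1 thus had its highest value on the array where Idi1 had its lowest. Sqle, the squalene epoxidase, read 7.27, 7.86 and 7.27 in vehicle and 7.79, 7.31 and 7.21 with OSU-CG5. One array of each group was high for Sqle, and the difference was -0.03 (SE 0.21, 95% interval -0.52 to 0.45; limma adjusted p = 0.952).

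The cyclase Lss differed by -0.03 (SE 0.12) and the lanosterol demethylase Cyp51 by 0.08 (SE 0.14), and their dimmer probe sets differed by -0.20 and -0.21 for Lss and by -0.27 and 0.12 for Cyp51. Of the C4 demethylation enzymes, Msmo1 differed by 0.22 (SE 0.17), Nsdhl by -0.19 (SE 0.17) and Hsd17b7 by 0.18 (SE 0.20). The last steps to cholesterol are catalysed by Ebp, Sc5d and Dhcr7, which differed by -0.13 (SE 0.19), 0.03 (SE 0.16) and -0.13 (SE 0.15). The dimmer probe sets of Sc5d differed by 0.12 and -0.19. Groups did not overlap, with treated values lower, for the last of these and for the Lss probe set at -0.21. Over the branch 6 of 17 genes were above 0 and 11 below.

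Genes that move cholesterol inside and out of the cell also read in both directions. Stard4, a sterol carrier and SREBP-2 target, read 9.48, 9.60 and 9.54 in vehicle and 9.69, 9.67 and 9.75 with OSU-CG5. The groups did not overlap, and the difference was 0.17 (SE 0.11; limma adjusted p = 0.461). Its middle probe set gave 7.85, 7.75 and 7.90 in vehicle and 8.21, 8.19 and 8.25 with OSU-CG5, a difference of 0.38 (SE 0.11; limma adjusted p = 0.189), and its dimmest differed by -0.11 (SE 0.20). Npc2, which hands cholesterol out of lysosomes, read 12.91, 13.29 and 12.93 in vehicle and 12.85, 12.88 and 12.89 with OSU-CG5. The groups for Npc2 were barely apart, and the difference was -0.17 (SE 0.14; limma adjusted p = 0.549). Its membrane partner Npc1 differed by 0.09 (SE 0.14).

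On their brightest probe sets, the cholesterol exporters read in opposite directions. Abca1, which loads cholesterol onto apolipoprotein A-I, read 9.50, 9.13 and 9.13 in vehicle and 9.62, 9.46 and 9.68 with OSU-CG5. The lowest treated value lay under the highest vehicle value, and the difference was 0.33 (SE 0.14, 95% interval 0.01 to 0.66; limma adjusted p = 0.294). Its dimmer probe sets differed by 0.16 and -0.08. Abcg1, which exports cholesterol to formed lipoprotein particles, read 6.00, 6.20 and 5.67 in vehicle and 5.39, 5.71 and 5.69 with OSU-CG5. The difference was -0.36 (SE 0.17; limma adjusted p = 0.323). The dimmer probe set of Abcg1 differed by 0.09, so it did not share that direction. Nr1h3, the receptor LXR alpha that drives both exporters, read 5.75, 5.44 and 5.25 in vehicle and 4.95, 5.21 and 5.39 with OSU-CG5, a difference of -0.30 (SE 0.17; limma adjusted p = 0.411). The 9 macrophage markers, from cells that also use this axis, all had lower group means with OSU-CG5. They averaged 7.06 to 7.50 in vehicle and 6.62 to 6.92 with OSU-CG5. This was not particular to macrophages. Lower means were also seen for all 5 skeletal muscle and all 5 endothelial markers. The same held for 5 of 6 fibroblast and 4 of 5 smooth muscle markers. Luminal markers were 4 lower and 4 higher, and all 4 proliferation markers measured were higher. Of all 18193 genes, 11945 were below 0. The part of these cell types in the differences of Abcg1, Nr1h3 and Abca1 was not tested.

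**Figure D3:**
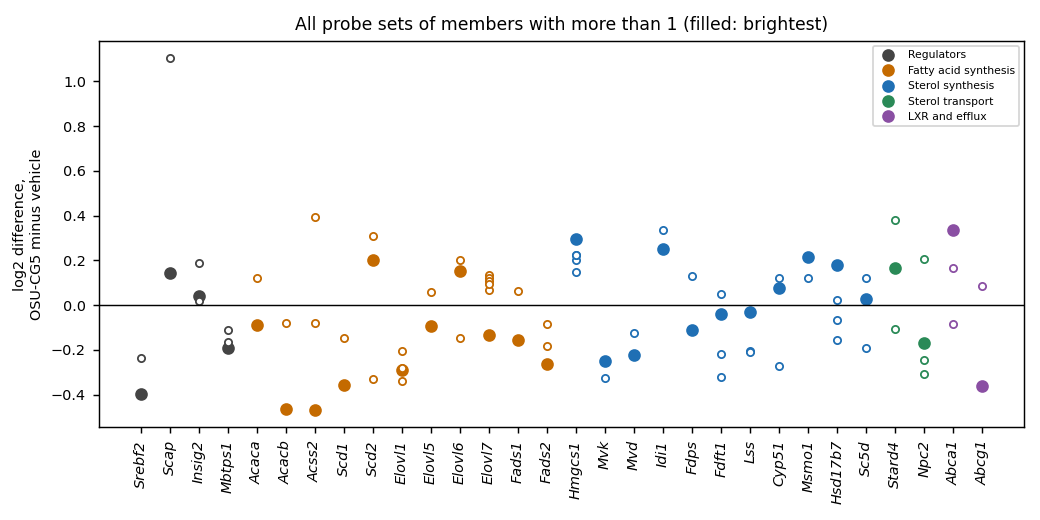
The log2 difference (OSU-CG5 minus vehicle) is plotted for every probe set of the 30 members with more than 1, with filled points for the brightest and open points for the others, coloured by branch. The dimmer probe set of Scap at 1.10 is the only point beyond 0.5, and 16 of the 30 genes have probe sets on both sides of 0.

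Probe sets of a gene did not always share a sign. Of the 30 members with more than 1 probe set, 14 had all of them on the same side of 0 and 16 had them on both sides. The same split was not counted over all genes, so it cannot be called particular to the members. Among the 56 dimmer probe sets of members, 2 read higher at an unadjusted p under 0.05, those of Scap and Stard4, and 1 read lower, that of Mvk. Over all dimmer probe sets with a single symbol the shares were 9.47% higher and 6.48% lower. For Elovl1, Elovl5, Elovl7, Fdft1, Hsd17b7, Mvd and Lss the brightest probe set has the suffix _x_at or _s_at, which marks probes that may cross-hybridise with other transcripts, so the values of these genes are less certain.

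The members varied more among the vehicle mice than among the treated mice. Over the 42 members the median of the SD was 0.25 among vehicle mice and 0.16 among treated mice, against 0.18 and 0.13 for all genes (log2, n = 3 each). Vehicle replicate 2 had the highest of the 6 values for 23 of 42 members, or 54.8%, including 7 of 12 fatty acid genes and 12 of 17 sterol genes. That array was also the highest for 38.4% of all genes and 41.5% of genes with a mean of at least log2 6. Fatty acid genes averaged 8.67 on that array against 8.18 to 8.39 elsewhere, and sterol genes averaged 7.91 against 7.61 to 7.76. Without that array the median difference was -0.08 for fatty acid synthesis and 0.04 for sterol synthesis. The seminal vesicle transcripts were highest on the same array, and their part in these values was not tested.

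**Figure D4:**
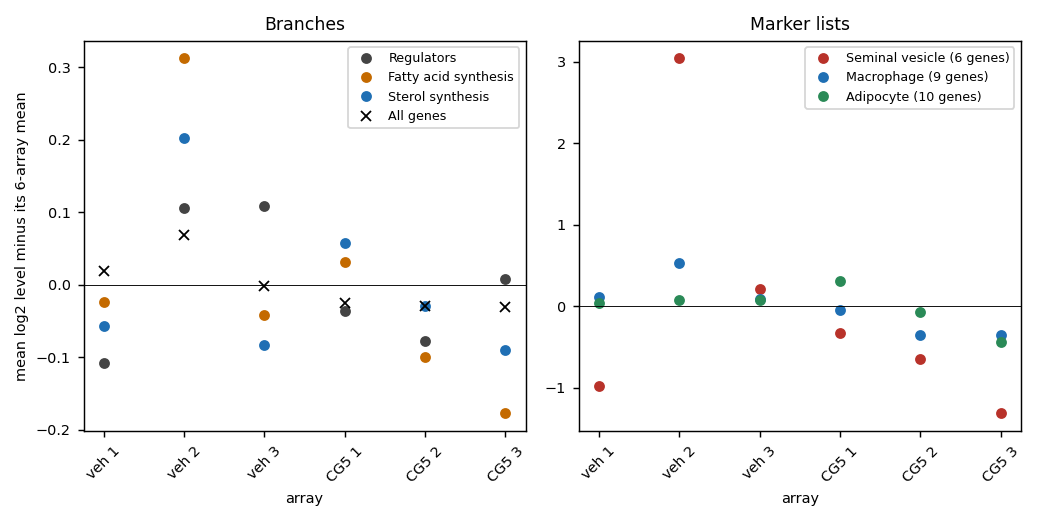
The mean log2 level of each gene list on each array is plotted as its distance from the list's mean over the 6 arrays, for 3 branches and all genes at the left and for 3 marker lists at the right, on different scales. Fatty acid and sterol genes are highest on vehicle replicate 2, where seminal vesicle transcripts are highest too, and the treated arrays lie within the vehicle range for sterol synthesis apart from the lowest of them.

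Neighbouring lipid genes that are not members gave the same kind of result. Of 47 such genes listed, 40 were measured, with a median log2 difference of -0.04, 16 above 0 and 24 below. The share above 0 was 40%, against 34.3% of all genes. None passed the adjusted threshold in limma, and at an unadjusted p under 0.05 there were 0 higher and 1 lower. These were 0% and 2.5% of them, against 5.4% and 8.43% of all genes. That gene was Agpat2, an acyltransferase of triglyceride and phospholipid synthesis, which read 6.46, 6.76 and 6.70 in vehicle and 6.33, 6.02 and 6.10 with OSU-CG5. Its groups did not overlap, and the difference was -0.49 (SE 0.14; limma adjusted p = 0.184). The next smallest p-values belonged to genes that all read lower: Dgat2, which completes triglycerides, at -0.35 (SE 0.16), Apoe at -0.40 (SE 0.19) and Scd3 at -0.31 (SE 0.15), and also the lipoprotein receptors Scarb1 at -0.27 (SE 0.13) and Vldlr at -0.33 (SE 0.18), the phospholipid remodelling enzyme Lpcat3 at -0.30 (SE 0.15) and the citrate carrier Slc25a1 at -0.44 (SE 0.23). Acly, which turns citrate into the acetyl-CoA for both branches, differed by -0.04 (SE 0.13, 95% interval -0.33 to 0.26; limma adjusted p = 0.898).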

How the data were processed

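Expression was measured with 1 Affymetrix array for each of 6 mice. The deposited values are log2 expression per probe set, made by the authors with RMA per the submitters' processing notes; the software is not given in the sources used here. RMA normalizes arrays together, which partly removes a shift of most transcripts in 1 direction. Groups follow the source label; the descriptions of 2 of the 3 treated samples name OSU-CG6 and OSU-CG7 instead, and this was not resolved. The labels pair no mice and give no batch.

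After 64 controls were removed, 45037 probe sets were fitted with limma 3.58.1 in R 4.3.3 (lmFit and eBayes, OSU-CG5 minus vehicle, no filter). Benjamini-Hochberg adjustment was over all of them. The procedure was tested on simulated data whose added changes were larger than every difference of the members' brightest probe sets. The simulation held no outlying array, so it does not show what would be detected at the differences seen here. SE and 95% intervals are limma's moderated ones, and SD is over 3 arrays. Genes were named from the platform annotation where a probe set had 1 symbol (34945 probe sets, 18193 genes; 932 had several and 9160 none); 34741 had a gene number in the RefSeq table and 0 symbols changed. Every member with a probe set is given with its values or its difference, and of the neighbouring genes the 8 with the smallest p, Dgat2 among them, and Acly.

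The members and lists were chosen with earlier results of these data known. The alternatives tried were filters on dim probe sets (mean under log2 6 or 4), other scalings, variance models and array weights, 1 probe set per gene, the mean of a gene's probe sets, and leaving out each array. Precision is limited by 3 arrays per group.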

Additional observations from a re-analysis of the deposited data

How the results depend on the processing

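No member and none of the neighbouring lipid genes passed limma's adjusted threshold on its brightest probe set under any alternative. At an unadjusted p under 0.05 the count of 1 member higher, Abca1, became 0 with a minimum mean of log2 6 or log2 4, repeated quantile normalization, cyclic loess, the intensity trend or array weights. It became 2 with arrays centred or 1 probe set per gene (Hmgcs1 and Abca1) and 2 without moderation (Mbtps2 and Stard4), and with the mean of all probe sets the 1 higher call was Scap. Higher shares of all genes ran from 3.78% with repeated quantile normalization to 7.87% with a minimum mean of log2 6. The 4 that read lower became 2 with a minimum mean of log2 6, where 5.69% of all genes did. That filter left 36 of the 42 members: it removed Acacb, while Acss2 was kept and lost its call. Without moderation the 4 became 1, where 7.24% of all genes did. Of the neighbouring genes 1 read lower, and that count was 8 with repeated quantile normalization (11.3% of all genes), 5 with cyclic loess (6.86%), 4 with array weights (11.2%) and 2 with the mean of all probe sets (9.78%), where 1 also read higher. Among the sterol genes the median of -0.04 was -0.12 with repeated quantile normalization and -0.13 with the mean of all probe sets, which also moved the fatty acid median from -0.14 to -0.03 and the member median from -0.10 to -0.04.

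Leaving out each array in turn gave 0 to 1 members higher and 0 to 9 lower, and 0 to 1 neighbouring genes higher and 1 to 7 lower. Over the same refits 3.13% to 6.32% of all genes read higher at that p and 4.16% to 11.7% read lower. The medians ran from -0.15 to -0.03 over members, -0.28 to -0.08 for fatty acid synthesis, -0.154 to 0.038 for sterol synthesis and -0.07 to 0.02 for neighbouring genes. Adjusted counts of members and neighbouring genes stayed at 0 on their brightest probe sets, while 0 to 885 of all probe sets passed.

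Single genes, not all of them with differences near 0, changed sign without passing the threshold. With repeated quantile normalization these were Insig2 (-0.039), Cyp51 (-0.012) and Sc5d (-0.052), and with cyclic loess Lss (0.001). With array weights they were Fasn (0.006), Fdft1 (0.057), Lss (0.041) and Acly (0.007). With the mean of all probe sets they were Acaca (0.017), Elovl7 (0.065), Fdps (0.009), Cyp51 (-0.025), Hsd17b7 (-0.006) and Sc5d (-0.014). Over the refits without 1 array, differences ranged across 0 for Scap (-0.007 to 0.252), Insig1 (-0.059 to 0.256), Insig2 (-0.013 to 0.13), Fasn (-0.112 to 0.109), Elovl5 (-0.221 to 0.066) and Acly (-0.113 to 0.063). Among sterol and transport genes they did so for Idi1 (-0.047 to 0.467), Fdps (-0.252 to 0.038), Fdft1 (-0.255 to 0.215), Sqle (-0.209 to 0.164), Lss (-0.099 to 0.027), Cyp51 (-0.020 to 0.148), Hsd17b7 (-0.019 to 0.326), Ebp (-0.242 to 0.088), Sc5d (-0.083 to 0.159) and Npc1 (-0.005 to 0.225). The cause of these changes was not tested. No paired analysis was possible because the labels give no number shared between the groups.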
